A study of Mus musculus with 4 samples.

Results

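The 49 genes described here are the mouse Wnt ligands (19 genes), the Frizzled receptors (10 genes) and 20 further genes that export Wnt proteins or carry, dampen or read out their signal. They were taken by gene symbol from the 41214 genes counted in each library, with pseudogenes left out, by a rule that names symbols and uses no measured value, written with earlier results of these data known. RNA had been sequenced from megakaryocytes, the platelet-forming cells of the bone marrow, sorted from leg and upper arm bones of C57Bl/6 mice aged 8 weeks by the absence of lineage markers and the presence of cKit, CD41 and CD61. There were 4 groups of 1 library each: Gfi1b knockout with PF4-Cre, Gfi1b wild-type with PF4-Cre, Gfi1b knockout with ROSA-Cre, and Gfi1b wild-type with ROSA-Cre. All 4 groups are labelled with a Cre, the wild-type ones included. Gfi1b encodes a zinc finger repressor of transcription needed for the megakaryocyte and erythroid lineages. The Pf4 promoter is active mainly in megakaryocytes and the Rosa26 locus in most cell types. The labels do not say which part of Gfi1b was removed, how the ROSA-Cre was activated or how many mice gave each library, so p-values measure only the spread between these libraries, which may be technical.

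Wnt proteins are lipid-modified signals that bind a Frizzled receptor together with the co-receptor Lrp5 or Lrp6. In the beta-catenin branch, binding recruits Dishevelled, stalls the complex of Axin, Apc and Gsk3 that marks beta-catenin for destruction, and lets beta-catenin enter the nucleus, where it joins TCF/LEF factors on target genes. Axin2, Nkd1, Rnf43 and Znrf3 are commonly induced targets that feed back on the pathway. In the bone marrow, Wnt signals from several cell types act on blood stem cells and on bone formation.

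The libraries held 59595680 and 21835165 gene counts in the PF4-Cre and ROSA-Cre knockouts, against 61652843 and 24869421 in the PF4-Cre and ROSA-Cre wild-types. Below, each pair of values gives PF4-Cre first and ROSA-Cre second, and CPM is the usual rate of counts per library, computed with TMM-scaled library sizes. Gfi1b itself stood at 1400 and 2461 CPM in the libraries labelled knockout, against 170 and 238 CPM in those labelled wild-type, which goes against a plain reading of the labels. The targeted gene thus rose 9.24-fold (log2 fold change 3.21 ± 0.17 SE, adjusted p = 0.000142), and whether the counted part lies inside the removed part cannot be read from the labels. Knockout means the library labelled knockout throughout. Adjusted p-values come from the quasi-likelihood test of edgeR, adjusted by Benjamini-Hochberg over 15063 genes, with 1 library per genotype and Cre model and the models serving as each other's replicate. Itga2b, which encodes CD41, was the most abundant megakaryocyte marker, with 2469 and 2154 CPM in knockout libraries and 2381 and 3569 CPM in wild-type libraries, and none of the 10 markers of that list was at 0. The 10 markers summed to 7270 and 6198 CPM in knockout libraries, against 6699 and 9412 CPM in wild-type libraries, with 3 that rose, 2 that fell and a median log2 fold change of -0.31. Summed markers of other cells also differed between libraries, not always in the same direction in both models, and the sums were not tested. The counts of markers that rose or fell stand beside 12.6% of all genes tested that rose and 9.59% that fell. The 8 neutrophil markers summed to 1003 and 467 CPM in knockout libraries, against 1676 and 1798 CPM in wild-type libraries, and 4 of the 8 fell. The 8 stem and progenitor markers summed to 963 and 999 CPM, against 763 and 599 CPM, and 3 of the 8 rose. The 8 erythroid markers summed to 185 and 285 CPM, against 49.7 and 99.8 CPM, with 3 that rose and 2 that fell. The 8 stromal and osteoblast markers summed to 24.1 and 32.8 CPM, against 42.0 and 45.1 CPM, with 3 that fell and Bglap at 0 in all 4 libraries. The 7 endothelial markers summed to 384 and 383 CPM, against 313 and 351 CPM, with 2 that rose. The 7 T cell markers summed to at most 4.93 CPM in any library and the 7 B cell markers to at most 30.6 CPM, and none of either list passed the test. Of the 7 monocyte and macrophage markers 1 fell, with sums of 86.9 and 34.6 CPM against 77.1 and 79.5 CPM, and of the 7 mast cell and basophil markers 1 rose, with sums of 86.5 and 109 CPM against 63.6 and 83.7 CPM. The part of these cells in the results on Wnt genes was not tested, and in these bulk libraries fewer cells of a type and less RNA per cell cannot be told apart.

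Of the 49 genes, 7 had no count in any library, 16 had between 1 and 9 counts in their highest library, and 26 had at least 10 counts in a library. The 7 without a count were all ligands: Wnt3, Wnt3a, Wnt5a, Wnt7a, Wnt7b, Wnt8a and Wnt9b. A count of 0 allows up to 0.0496 and 0.134 CPM in the knockout libraries and 0.0502 and 0.122 CPM in the wild-type libraries, as 3 counts would be, and these limits and all intervals here cover counting error only. The filter on low counts works on library-scaled values and left 26 genes to test, Nkd1 included and Wnt11 not. Fzd1 passed only through its knockout libraries, and Fzd4 was under the filter level in the ROSA-Cre knockout alone. Between genotypes, 7 genes rose (Wnt10b, Fzd1, Fzd6, Fzd8, Fzd9, Porcn and Tcf7l2), 1 fell (Axin2) and 18 were not called. These 8 calls were 30.8% of the 26 genes tested (26.9% higher and 3.85% lower) and 16.3% of all 49 genes, beside 22.2% of all genes tested (12.6% higher and 9.59% lower). The 26 include Fzd1, which passed the filter only through the libraries where it was higher, and the shares were not tested against each other. The median log2 fold change was 0.14 over the 26 genes and -0.02 over all genes tested. The count fell to 1 (Wnt10b) in the fit of all 4 libraries without the Cre model term. In the fits without 1 library, which also drop that term, it was 6 without the PF4-Cre knockout, 1 without the PF4-Cre wild-type, 2 without the ROSA-Cre knockout and 2 without the ROSA-Cre wild-type. Wnt10b was called in each of these fits. Fzd1 was also called without the PF4-Cre knockout or the ROSA-Cre knockout, Fzd6 without the PF4-Cre knockout or the ROSA-Cre wild-type, and Fzd9, Porcn and Tcf7l2 without the PF4-Cre knockout alone, while Fzd8 and Axin2 were called in none of the 4.

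**Figure D1:**
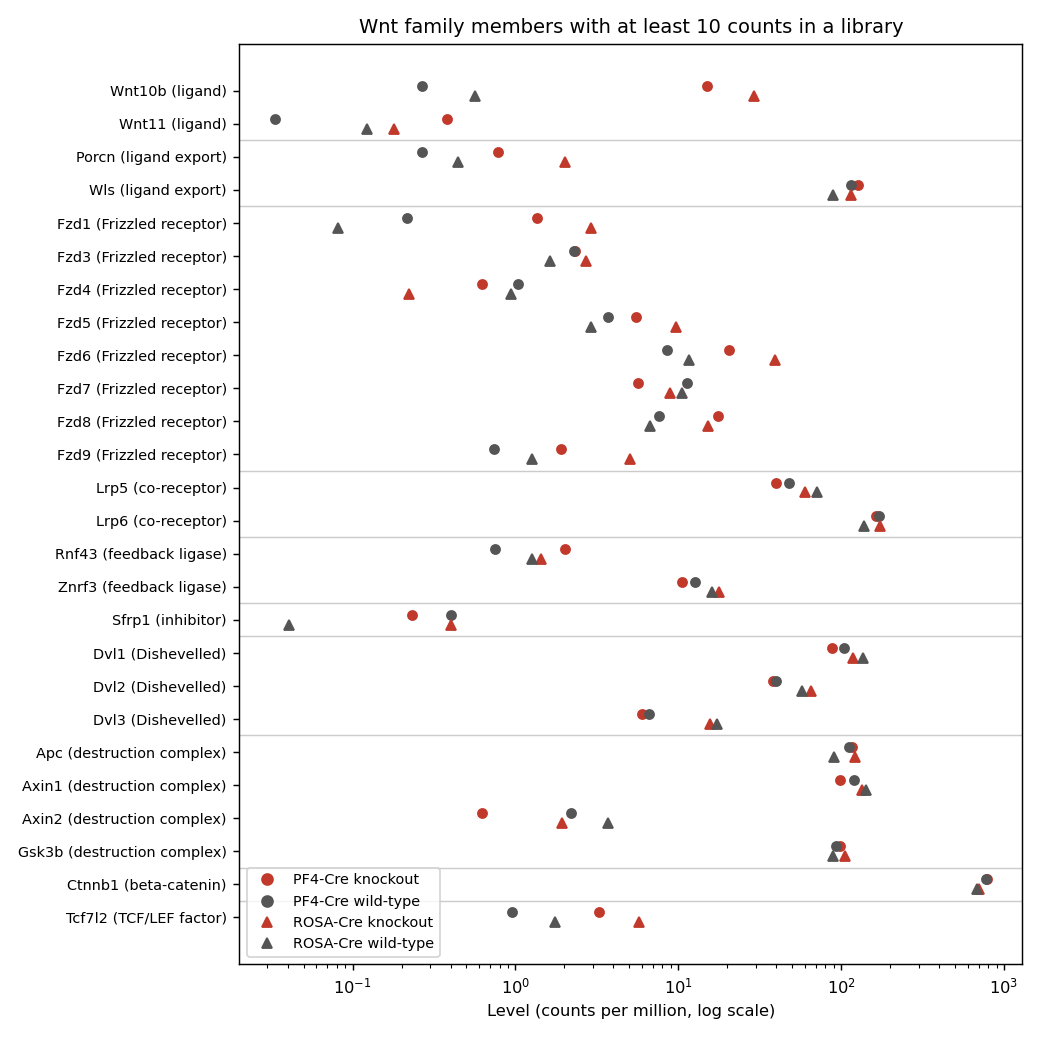
Level of each Wnt gene with at least 10 counts in a library (rows) in the 4 libraries (points), in CPM on a log axis. Wnt10b shows the widest gap, at 15.04 and 29.2 CPM in the knockout libraries against 0.268 and 0.569 CPM in the wild-type libraries.

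**Figure D2:**
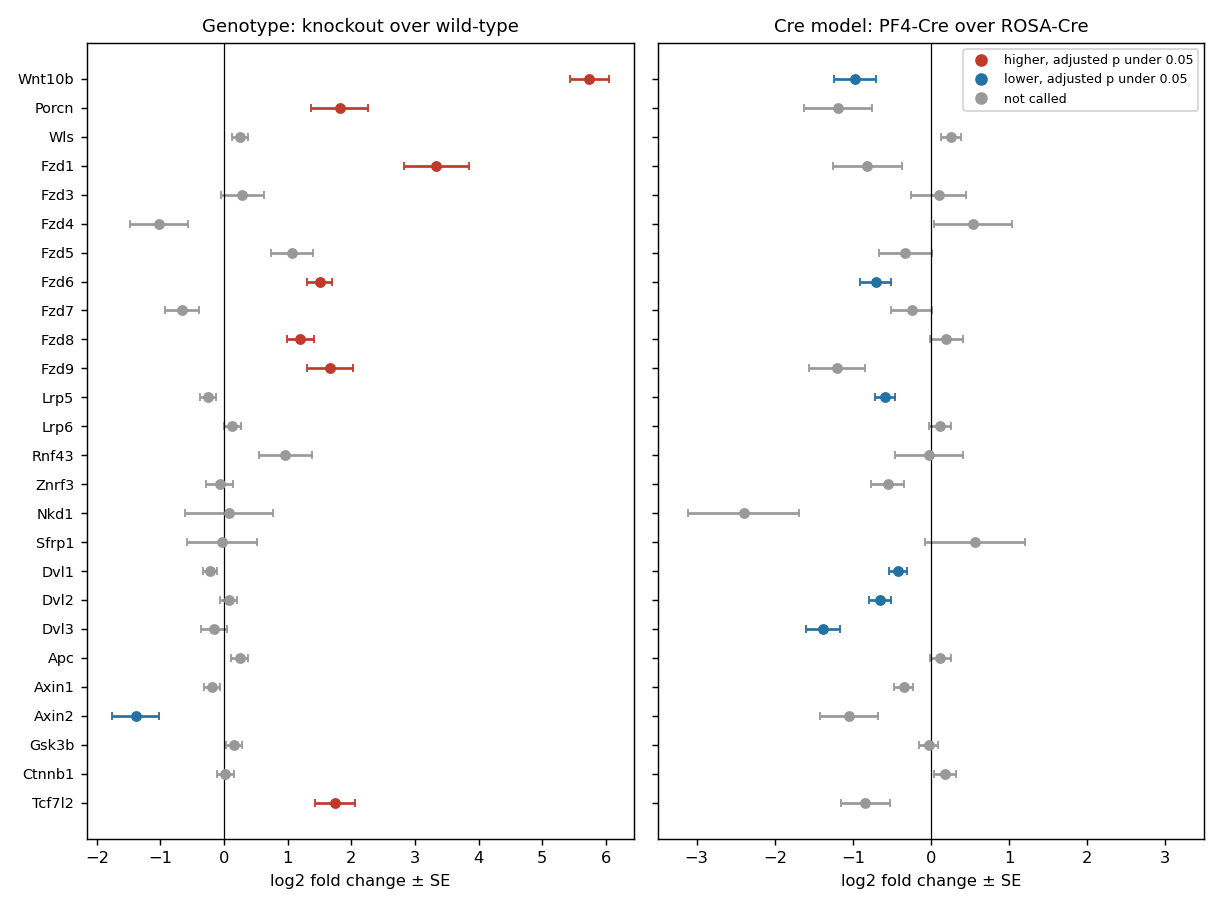
Log2 fold change with its standard error for the 26 Wnt genes tested (rows), knockout over wild-type in the left panel and PF4-Cre over ROSA-Cre in the right panel. Coloured points passed edgeR's test, 7 higher and 1 lower for genotype, and 0 higher and 6 lower for Cre model.

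The plot of levels and the plot of fold changes set one ligand apart from the rest of the genes. Wnt10b, a ligand of the beta-catenin branch that promotes bone formation and restrains fat formation in mice, was the sole ligand that passed the filter. It had 910 and 655 counts in the knockout libraries, against 16 and 14 counts in the wild-type libraries. Scaled, this was 15.04 and 29.2 CPM against 0.268 and 0.569 CPM. Both knockout libraries were far above both wild-type libraries, with no overlap. The fitted difference was 53.5-fold (log2 fold change 5.74 ± 0.31 SE, adjusted p = 0.000142). Within PF4-Cre the ratio was 56.2 (95% interval 34.4 to 98.7), and within ROSA-Cre it was 51.4 (95% interval 30.4 to 94.6). Over the 11 alternative fits the log2 fold change lay between 5.27 and 6.37, and the largest adjusted p was 0.0223, in the fit without the Cre model term.

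Wnt10b took nearly all ligand counts of the knockout libraries, 910 of 943 (96.5%, exact Clopper-Pearson 95% interval 95.1 to 97.6) and 655 of 668 (98.1%, 96.7 to 99.0). In the wild-type libraries it took 16 of 38 (42.1%, 26.3 to 59.2) and 14 of 28 (50%, 30.6 to 69.4). The other 18 ligands summed to 33 and 13 counts in the knockout libraries, against 22 and 14 counts in the wild-type libraries. The total of ligand counts outside Wnt10b was thus small in every library. Wnt11, a ligand best known for planar polarity and cell movement, had 23 and 4 counts in the knockout libraries and 2 and 3 counts in the wild-type libraries. Its PF4-Cre knockout library stood alone, and the gene did not pass the filter. The ratio was 11.4 within PF4-Cre (95% interval 2.81 to 99.4) and 1.47 within ROSA-Cre (0.248 to 10.003). The other 10 ligands with a count, Wnt1, Wnt2, Wnt2b, Wnt4, Wnt5b, Wnt6, Wnt8b, Wnt9a, Wnt10a and Wnt16, had at most 8 counts in any library and did not pass the filter. Wnt5b, one of the 10, overlaps the abundant gene Fbxl14 on the opposite strand, and the strand setting of the counting is not given in the sources used here.

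Wnt10b lies on chromosome 15 at 98770712 to 98778150 on the minus strand (GRCm38, GENCODE M21). Wnt1, the next ligand gene on that chromosome, begins 11706 bases away and had 0 and 1 counts in the knockout libraries and no count in either wild-type library. Arf3, a small GTPase gene 7497 bases away on the other side, stood at 50.9 and 122 CPM in knockout libraries and 53.8 and 123 CPM in wild-type libraries, and was not called (log2 fold change -0.04 ± 0.12 SE, adjusted p = 0.828). Prkag1, a subunit gene of the energy sensor AMPK, and Fkbp11, a peptide folding enzyme gene, also lie within 50 kb and were not called, at log2 fold changes of -0.38 (adjusted p = 0.0623) and -1.33 (adjusted p = 0.0519). These were the 3 neighbours within that distance that could be tested.

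The 250 bases before the start are printed for Wnt10b and Fzd1, the genes with the largest rises, and for Axin2, the gene that fell. They come from RefSeq (GRCm38.p6), 5′ to 3′ on the gene's strand, with AATC, the core motif of the GFI1 family, or its reverse complement GATT in capitals.
Wnt10b, chr15:98778151-98778400, minus strand: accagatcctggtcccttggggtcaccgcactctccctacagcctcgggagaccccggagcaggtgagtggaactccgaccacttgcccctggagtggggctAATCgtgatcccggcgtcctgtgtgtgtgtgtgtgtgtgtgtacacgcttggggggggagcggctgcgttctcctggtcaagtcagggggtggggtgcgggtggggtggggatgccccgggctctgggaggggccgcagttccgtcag
Fzd1, chr5:4758217-4758466, minus strand: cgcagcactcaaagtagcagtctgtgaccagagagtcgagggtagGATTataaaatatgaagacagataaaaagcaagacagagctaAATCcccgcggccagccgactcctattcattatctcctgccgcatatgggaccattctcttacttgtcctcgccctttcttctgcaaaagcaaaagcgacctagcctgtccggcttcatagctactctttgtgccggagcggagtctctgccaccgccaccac
Axin2, chr11:108920099-108920348, plus strand: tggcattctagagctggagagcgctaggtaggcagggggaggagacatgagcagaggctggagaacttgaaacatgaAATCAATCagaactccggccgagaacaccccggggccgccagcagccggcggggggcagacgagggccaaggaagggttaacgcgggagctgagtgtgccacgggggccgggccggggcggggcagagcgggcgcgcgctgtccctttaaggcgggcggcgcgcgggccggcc
The window held 1 match in Wnt10b, 2 in Fzd1 and 2 adjoining ones in Axin2. The Fzd1 window ends 181 bases from the start that GENCODE gives, and the others meet theirs. Fzd9 and Tcf7l2 were the other called genes with a RefSeq start. The Fzd9 window held 0 matches. The Tcf7l2 window 10 bases from the GENCODE start held 0, and that 153501 bases from it held 2. Of the 49 genes 34 were matched to RefSeq starts, 44 in all, of which 26 held AATC or GATT in the window, beside 69.0% of 32851 promoters of the same length. The TCF/LEF motif ATCAAAG, or CTTTGAT on the other strand, was in 2 of the 44 windows, those of Wnt5b and Wnt11, beside 3.21% of all promoters. These matches describe letters, and no binding was measured.

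Export of Wnt proteins needs Porcn, the acyltransferase that attaches their lipid, and Wls, the carrier that takes them to the cell surface. Porcn had 47 and 45 counts in the knockout libraries, against 16 and 11 counts in the wild-type libraries. Scaled, both knockout libraries (0.777 and 2.01 CPM) were above both wild-type libraries (0.268 and 0.447 CPM). Porcn rose 3.52-fold (log2 fold change 1.82 ± 0.45 SE, adjusted p = 0.0302), with ratios of 2.90 (95% interval 1.62 to 5.48) and 4.50 (2.29 to 9.64) within the models. The call was lost with the DESeq2 Wald test (adjusted p = 0.175) and without the filter (adjusted p = 0.0639). Over the 4 fits without 1 library the log2 fold change lay between 1.20 (without the ROSA-Cre knockout) and 2.57 (without the PF4-Cre knockout), with adjusted p between 0.0388 and 0.713. Wls was far more abundant, at 127 and 115 CPM in knockout libraries and 115 and 89.5 CPM in wild-type libraries, and was not called (log2 fold change 0.25 ± 0.12 SE, adjusted p = 0.186).

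Of the 10 Frizzled receptors, which bind Wnt through a cysteine-rich domain outside the cell, 4 rose, 0 fell, 4 were not called and 2 were not tested. Of all genes tested, 12.6% rose and 9.59% fell. Fzd6, known in mice for hair patterning and planar polarity, stood at 20.5 and 39.5 CPM in the knockout libraries, against 8.56 and 11.7 CPM in the wild-type libraries. Fzd8, the close relative of Fzd5, stood at 17.6 and 15.3 CPM, against 7.64 and 6.66 CPM. In both genes the knockout libraries were above both wild-type libraries. Fzd6 rose 2.83-fold (log2 fold change 1.501 ± 0.20 SE, adjusted p = 0.00412), with ratios of 2.40 (95% interval 2.16 to 2.66) and 3.39 (2.96 to 3.88). Fzd8 rose 2.30-fold (log2 fold change 1.20 ± 0.21 SE, adjusted p = 0.0103), with ratios of 2.30 (2.06 to 2.57) and 2.30 (1.90 to 2.79). Fzd6 shares its start region with Gm26704, a gene on the other strand with 31 and 21 counts in knockout libraries and 7 and 0 in wild-type libraries, far below the counts of Fzd6 itself.

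Less abundant receptors changed too. Fzd9, studied in mice for bone formation and B cell development, had 115 and 114 counts in the knockout libraries, against 44 and 31 counts in the wild-type libraries. It rose 3.18-fold (log2 fold change 1.67 ± 0.36 SE, adjusted p = 0.0199), with ratios of 2.58 (95% interval 1.81 to 3.74) and 4.04 (2.70 to 6.22). Fzd1, a receptor of the beta-catenin branch, had 82 and 65 counts in the knockout libraries, against 13 and 2 counts in the wild-type libraries. Neither gene overlapped between genotypes once scaled to CPM. Fzd1 rose 10.1-fold (log2 fold change 3.34 ± 0.51 SE, adjusted p = 0.00635), with ratios of 6.23 (3.45 to 12.2) and 35.7 (9.498 to 301), the second resting on 2 wild-type counts. Fzd1 entered the test only through its knockout libraries, and without the filter it was also called (adjusted p = 0.0186). Over the 4 fits without 1 library the log2 fold change lay between 1.03 and 1.97 for Fzd6, between 1.10 and 1.31 for Fzd8, between 0.98 and 2.40 for Fzd9 and between 2.98 and 4.59 for Fzd1, and the largest adjusted p was 0.303 for Fzd6, 0.426 for Fzd8, 0.688 for Fzd9 and 0.0601 for Fzd1.

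The other Frizzled genes did not pass the test. Fzd5, a receptor known in mice for yolk sac vessels and gut Paneth cells, stood at 5.49 and 9.73 CPM in the knockout libraries, against 3.68 and 2.92 CPM in the wild-type libraries. Its libraries did not overlap, yet it was not called (log2 fold change 1.07 ± 0.34 SE, adjusted p = 0.0604), with ratios of 1.49 (95% interval 1.25 to 1.78) and 3.33 (2.54 to 4.41). It was called by the DESeq2 Wald test (adjusted p = 0.0479), and also once the filter asked for a mean of 5 CPM or more (adjusted p = 0.0463). Fzd7, a receptor widely used in stem cells of other tissues, stood at 5.68 and 8.84 CPM in knockout libraries, against 11.4 and 10.6 CPM in wild-type libraries. It was lower in both knockout libraries but not called (log2 fold change -0.66 ± 0.26 SE, adjusted p = 0.118), with ratios of 0.501 (0.438 to 0.571) and 0.837 (0.692 to 1.01). Fzd4, the receptor of Norrin in retinal vessels, had 38 and 5 counts against 62 and 23 counts (log2 fold change -1.02 ± 0.46 SE, adjusted p = 0.153). Fzd3, which guides axons in mice, had 140 and 61 counts against 136 and 40 counts (log2 fold change 0.29 ± 0.34 SE, adjusted p = 0.587). Fzd2 had 7 and 4 counts against 2 and 2 counts, and Fzd10 had 2 counts in the PF4-Cre knockout and none elsewhere.

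**Figure D3:**
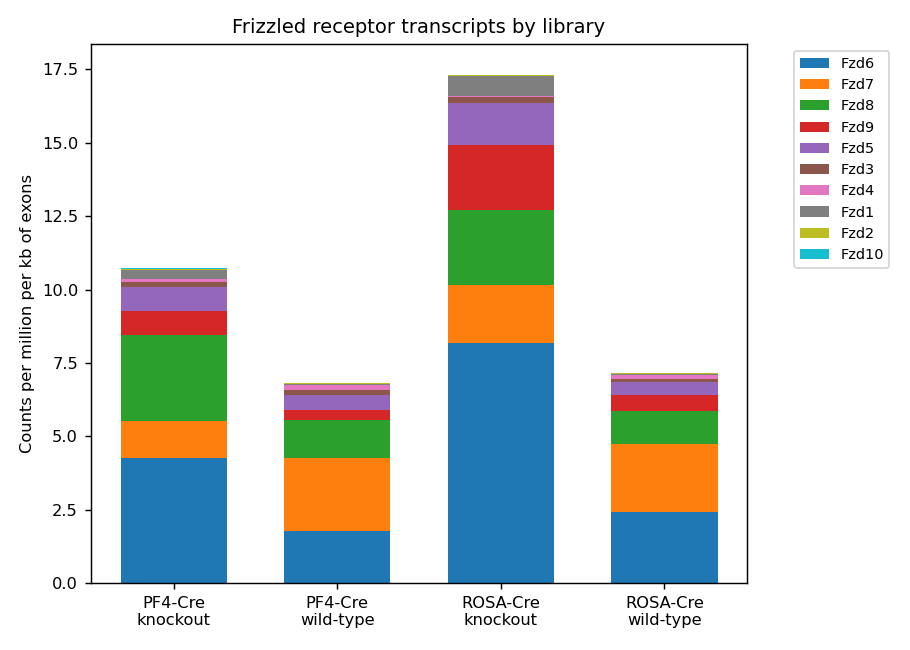
Summed Frizzled level in each of the 4 libraries (bars), in CPM per kilobase of exon, with a coloured segment for each receptor. Of the total, Fzd7 took 11.7% and 11.3% in the knockout libraries against 36.8% and 32.6% in the wild-type libraries.

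Levels of different receptors can be compared per exon length. The summed Frizzled level was 10.7 and 17.3 CPM per kilobase in the knockout libraries, against 6.81 and 7.14 CPM per kilobase in the wild-type libraries. As the plot of stacked receptor levels shows, Fzd6 took 39.8% and 47.3% of it in the knockout libraries, against 26.1% and 33.9% in the wild-type libraries, and Fzd7 took 11.7% and 11.3% against 36.8% and 32.6%. Fzd6 ranked first in both knockout libraries and in the ROSA-Cre wild-type, where Fzd7 followed closely, while Fzd7 ranked first in the PF4-Cre wild-type. Fzd8 took 27.4% and 14.8% in the knockout libraries and 18.8% and 15.6% in the wild-type libraries, higher in the PF4-Cre knockout than in its wild-type and slightly lower in the ROSA-Cre knockout than in its wild-type. Since shares sum to a whole, a lower share of Fzd7 can go with a rise of others, and no test was made on the shares.

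The co-receptors Lrp5 and Lrp6, which are needed for the beta-catenin branch, were not called. Lrp6 stood at 163 and 172 CPM in knockout libraries and 170 and 137 CPM in wild-type libraries (log2 fold change 0.13 ± 0.14 SE, adjusted p = 0.534). Its ratio was 0.957 (95% interval 0.931 to 0.984) for the PF4-Cre pair and 1.25 (1.20 to 1.31) for the ROSA-Cre pair, on either side of 1. Lrp5 stood at 39.6 and 60.1 CPM against 47.6 and 71.4 CPM (log2 fold change -0.26 ± 0.13 SE, adjusted p = 0.197). Znrf3 and Rnf43 encode membrane ubiquitin ligases that remove Frizzled receptors from the cell surface. Znrf3 stood at 10.5 and 17.9 CPM against 12.6 and 16.1 CPM (log2 fold change -0.07 ± 0.21 SE, adjusted p = 0.845). Rnf43 had 122 and 32 counts against 45 and 31 counts, with ratios of 2.68 (1.89 to 3.86) for PF4-Cre libraries and 1.13 (0.670 to 1.92) for ROSA-Cre libraries, and was not called (log2 fold change 0.96 ± 0.42 SE, adjusted p = 0.144). A gene inside an intron of Rnf43, 1110028F11Rik, had 258 and 115 counts in knockout libraries and 80 and 27 in wild-type libraries, and reads of overlapping genes cannot be told apart with certainty here.

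The inhibitors Sfrp1, Nkd1 and Dkk1 were scarce. Sfrp1, a decoy that binds Wnt outside the cell, had 14 and 9 counts in knockout libraries and 24 and 1 counts in wild-type libraries, and its ratios of 0.576 (95% interval 0.276 to 1.16) and 9.89 (1.37 to 434) lay on either side of 1 (log2 fold change -0.03 ± 0.55 SE, adjusted p = 0.972). Nkd1, which binds Dishevelled and is itself a target of beta-catenin, had 3 and 8 counts against 4 and 7 counts (log2 fold change 0.08 ± 0.70 SE, adjusted p = 0.949). Dkk1, which blocks Lrp5 and Lrp6, had 6 counts in the PF4-Cre knockout and none in the other libraries. Neither Sfrp1 nor Nkd1 passed the test, and Dkk1 had too few counts to enter it.

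Axin2, a scaffold of the destruction complex and the most widely used readout of beta-catenin signalling, was the single gene of the 49 that fell. It had 38 and 43 counts in the knockout libraries, against 132 and 91 counts in the wild-type libraries, which is 0.628 and 1.92 CPM against 2.21 and 3.70 CPM. Within each model the knockout was the lower, and the ROSA-Cre knockout was below the PF4-Cre wild-type too, so the groups did not overlap. The fold change was 0.382 (log2 fold change -1.39 ± 0.37 SE, adjusted p = 0.0381), with ratios of 0.284 (95% interval 0.193 to 0.411) and 0.519 (0.353 to 0.754). The call was the least stable of the 8: it was lost with the DESeq2 Wald test (adjusted p = 0.120), without the filter (adjusted p = 0.0700), with the older quasi-likelihood method (adjusted p = 0.0548), without the Cre model term (adjusted p = 0.384) and in all 4 fits without 1 library (adjusted p between 0.0714 and 0.827). Its log2 fold change was -1.37, -1.37, -1.38 and -1.33 in the first 4 of these fits, and over the fits without 1 library it lay between -2.21 (without the ROSA-Cre knockout) and -0.60 (without the PF4-Cre knockout). The sum of stromal and osteoblast markers was also lower in the knockout libraries (24.1 and 32.8 CPM, against 42.0 and 45.1 CPM). So were those of neutrophil markers (1003 and 467 CPM, against 1676 and 1798 CPM) and B cell markers (22.6 and 20.4 CPM, against 30.6 and 27.5 CPM). Sums of stem and progenitor, erythroid, endothelial, and mast cell and basophil markers were higher in both models. The part of any of these cells in the fall of Axin2 was not tested.

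The rest of the cytoplasmic relay was abundant and not called. Ctnnb1, which encodes beta-catenin, had 785 and 699 CPM in knockout libraries and 780 and 685 CPM in wild-type libraries, and both ratios lay near 1, at 1.01 (95% interval 0.993 to 1.02) and 1.02 (0.999 to 1.04). Its log2 fold change was 0.02 ± 0.14 SE (adjusted p = 0.935). Axin1, the constant scaffold of the complex, had 98.0 and 134 CPM against 119 and 143 CPM (log2 fold change -0.19 ± 0.12 SE, adjusted p = 0.301). Apc, another scaffold, had 117 and 122 CPM against 112 and 90.8 CPM (log2 fold change 0.25 ± 0.13 SE, adjusted p = 0.231), and Gsk3b, the kinase that marks beta-catenin, had 97.9 and 106 CPM against 93.7 and 89.7 CPM (log2 fold change 0.15 ± 0.12 SE, adjusted p = 0.407). The Dishevelled genes relay the signal from Frizzled. Dvl1 had 87.8 and 119 CPM against 104 and 137 CPM (log2 fold change -0.22 ± 0.12 SE, adjusted p = 0.216), Dvl2 had 38.4 and 65.5 CPM against 39.7 and 57.4 CPM (log2 fold change 0.07 ± 0.14 SE, adjusted p = 0.756), and Dvl3 had 5.97 and 15.6 CPM against 6.66 and 17.4 CPM (log2 fold change -0.16 ± 0.21 SE, adjusted p = 0.632).

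Among the TCF/LEF factors, which carry beta-catenin to DNA, Tcf7l2 was the sole one measured above a few counts. It had 196 and 129 counts in the knockout libraries, against 57 and 43 counts in the wild-type libraries. At 3.24 and 5.76 CPM both knockout libraries were above both wild-type libraries, at 0.953 and 1.75 CPM. Tcf7l2 rose 3.35-fold (log2 fold change 1.74 ± 0.32 SE, adjusted p = 0.0115), with ratios of 3.40 (95% interval 2.52 to 4.65) and 3.30 (2.32 to 4.77). Over the 4 fits without 1 library its log2 fold change lay between 1.31 and 2.23, and its largest adjusted p was 0.454. Ppnr, a gene inside an intron of Tcf7l2 on the same strand, had 38 and 25 counts against 13 and 10 counts. Lef1 and Tcf7, the factors best known from lymphocytes, were near absent. Lef1 had 7 and 0 counts in knockout libraries and 4 and 0 counts in wild-type libraries, and Tcf7 had 3 and 2 counts against 8 and 1 counts.

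**Figure D4:**
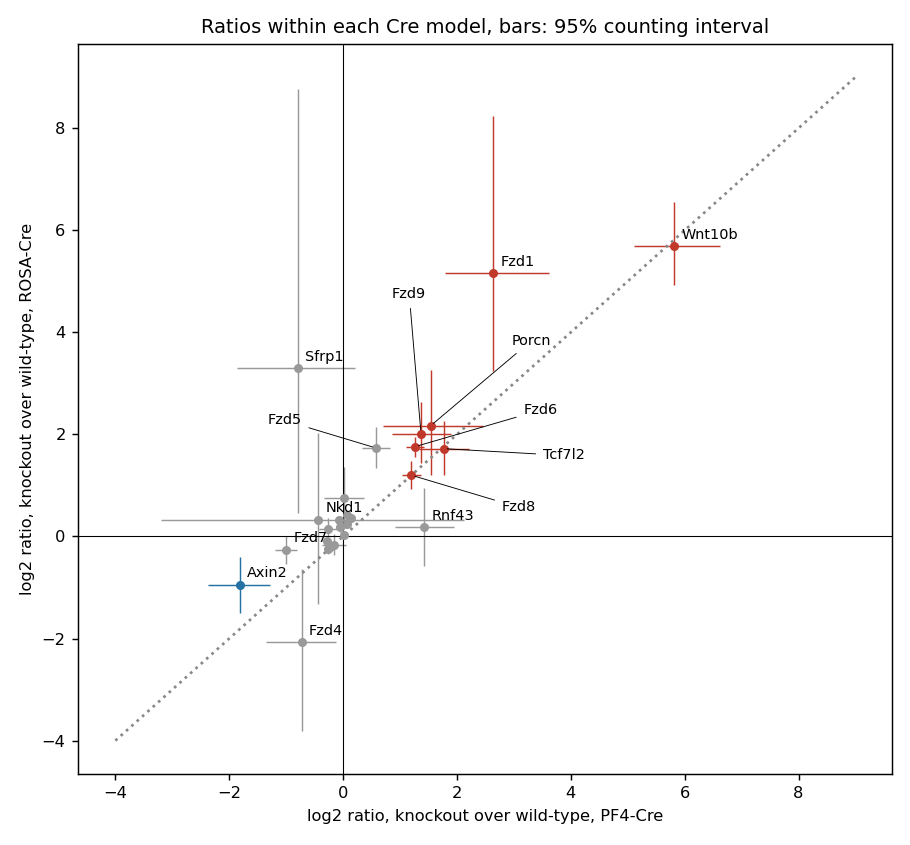
Log2 ratio of knockout over wild-type within ROSA-Cre (vertical) against that within PF4-Cre (horizontal) for the Wnt genes tested, with 95% counting intervals as bars and a dotted line of equal ratios. Wnt10b lies near that line at ratios of 56.2 and 51.4, while Sfrp1 has ratios of 0.576 and 9.89.

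The plot of ratios sets the models side by side. With at least 10 counts in the knockout or the wild-type library of each pair, 24 genes could be read. Of these, 7 were at least 2-fold higher in knockout in both models, while 0 were at least 2-fold lower. Among 14405 genes with that many counts, 7.43% were at least 2-fold higher in both models and 1.47% at least 2-fold lower, 8.91% in either direction. The 7 were the same genes as those that rose in the test, which used the same 4 libraries, so the match is not separate evidence. At a limit of 4-fold 2 of the 7 were left, Wnt10b and Fzd1, the latter with 2 counts in the ROSA-Cre wild-type. In ROSA-Cre, Fzd1 met the rule of 10 counts through its knockout library alone. Of all genes that met the same count rule, 2.80% passed the 4-fold limit in either direction. The difference between the models in the genotype effect could not be tested, since 1 library per group leaves no spread for it.

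Between the Cre models, PF4-Cre over ROSA-Cre, 0 of the 26 genes tested were higher and 6 were lower. These 6 were 23.1% of the 26 genes tested and 12.2% of all 49, beside 18.7% of all genes tested (10.4% higher and 8.33% lower), and the median log2 fold change was -0.39 over the 26 and -0.02 over all genes. All 3 Dishevelled genes were lower in PF4-Cre. Dvl3 had 5.97 and 6.66 CPM in the PF4-Cre knockout and wild-type, against 15.6 and 17.4 CPM in the ROSA-Cre ones (log2 fold change -1.38 ± 0.21 SE, adjusted p = 0.0085). For Dvl2 the log2 fold change was -0.65 ± 0.14 SE (adjusted p = 0.0223), from 38.4 and 39.7 CPM against 65.5 and 57.4 CPM, and for Dvl1 it was -0.42 ± 0.12 SE (adjusted p = 0.0473), from 87.8 and 104 CPM against 119 and 137 CPM. Lrp5 (log2 fold change -0.59 ± 0.13 SE, adjusted p = 0.0234), Fzd6 (-0.71 ± 0.20 SE, adjusted p = 0.0482) and Wnt10b (-0.97 ± 0.27 SE, adjusted p = 0.0444) were also lower. The PF4-Cre libraries were the deeper ones, and Cre model, depth and any batch tied to the model cannot be told apart. None of the 6 calls was made in the fits without 1 library or without the genotype term: there the count was 0 in each, with between 0 and 4 genes at an unadjusted p under 0.05, while the DESeq2 Wald test on all 4 libraries called 6.

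**Figure D5:**
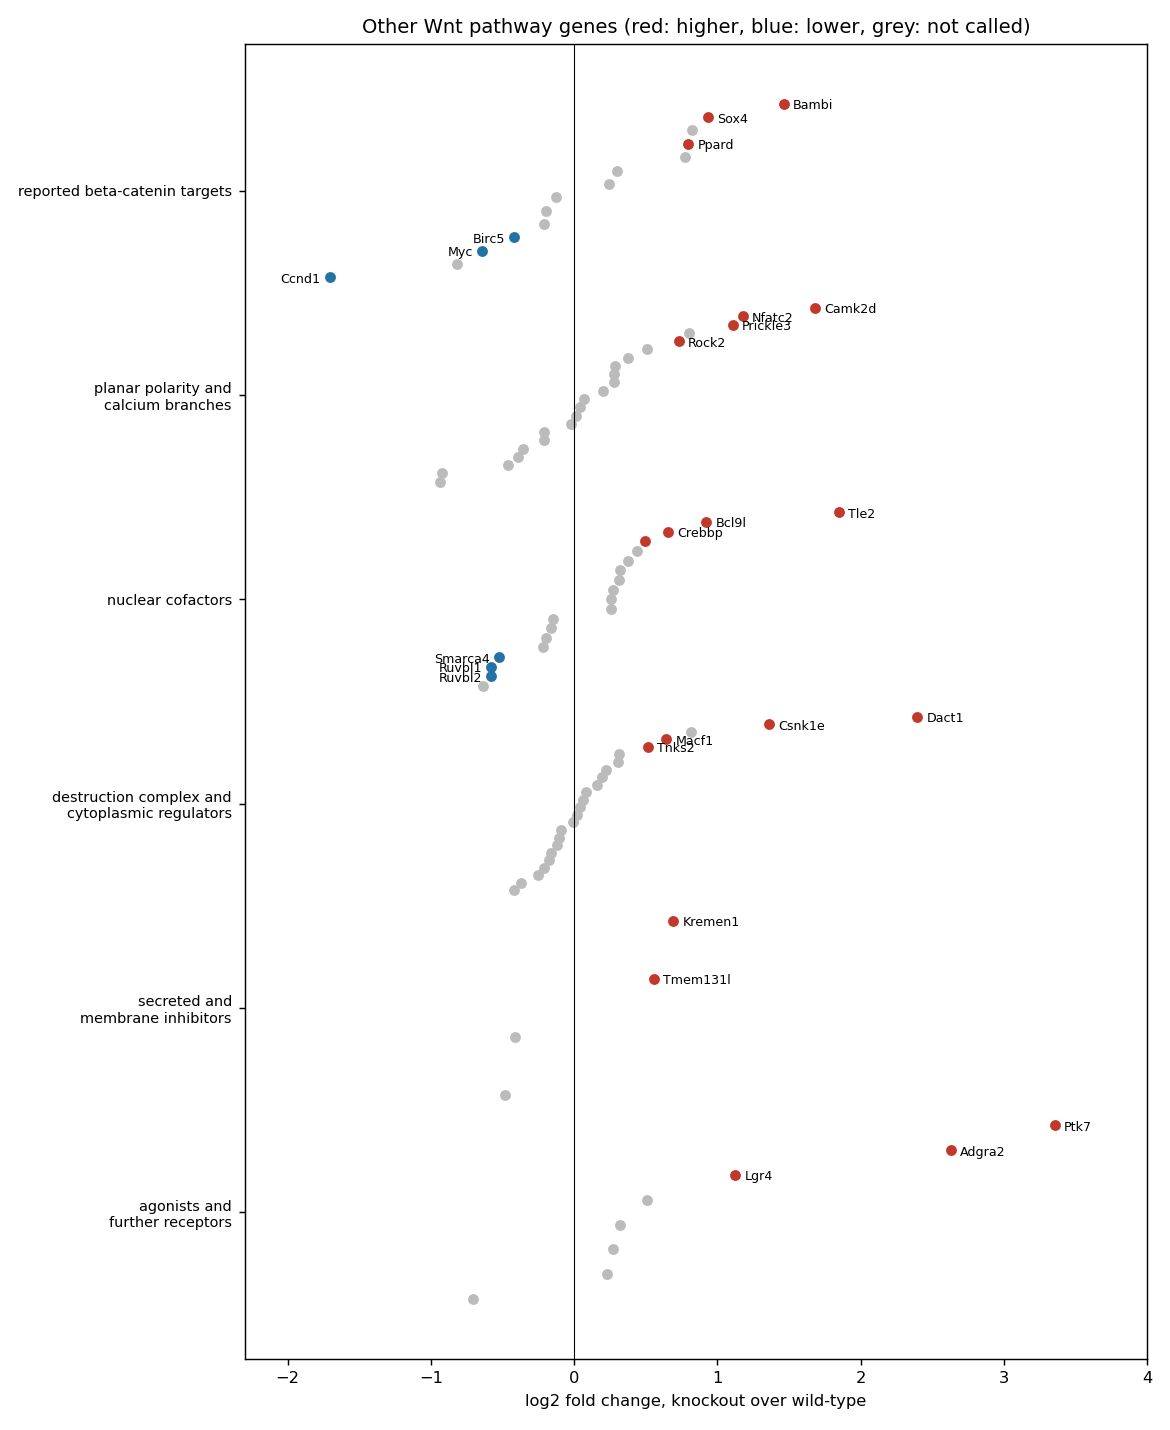
Log2 fold change, knockout over wild-type, of the other Wnt pathway genes tested (points), one row per list, with coloured points past edgeR's test. Ptk7 lies farthest to the right at 3.36 and Ccnd1 farthest to the left among the called genes at -1.71.

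Another 131 genes of the pathway were set out in 6 lists by role and are shown in the plot of pathway genes. Of the 91 tested, 20 rose, 6 fell and 65 were not called, and 40 were not tested. Their 26 calls were 28.6% of the 91, beside 22.2% of all genes tested (12.6% higher and 9.59% lower). The counts of each list below are to be read beside those same shares. The median log2 fold change of the 91 was 0.20, against -0.02 over all genes. The count was 11 without the PF4-Cre knockout and 4 without each of the other libraries in turn, in fits that also drop the Cre model term, and 1 (Ptk7) when only that term was dropped.

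Among the 15 agonists and further receptors, 3 rose and 0 fell of 8 tested. Ptk7, a receptor of the planar polarity branch with an inactive kinase, stood at 41.5 and 99.9 CPM in knockout libraries, against 5.45 and 7.03 CPM in wild-type libraries (log2 fold change 3.36 ± 0.24 SE, adjusted p = 0.000312). It was called in each of the 11 alternative fits, as Wnt10b was. Adgra2, a co-activator for Wnt7a and Wnt7b in brain vessels, had 139 and 49 counts against 17 and 13 counts (log2 fold change 2.63 ± 0.44 SE, adjusted p = 0.00864), while both of those ligands had no count. Lgr4, a receptor for R-spondins, stood at 14.5 and 12.0 CPM against 7.34 and 4.79 CPM (log2 fold change 1.13 ± 0.23 SE, adjusted p = 0.0176). Rspo2 and Rspo4 were at 0 in all libraries.

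Among the 17 secreted and membrane inhibitors, 2 rose and 0 fell of 4 tested, and Dkk2, Dkk4, Sfrp5, Sost, Sostdc1 and Cer1 were at 0. Kremen1, a receptor for Dkk proteins, stood at 24.7 and 40.2 CPM against 18.1 and 20.6 CPM (log2 fold change 0.69 ± 0.19 SE, adjusted p = 0.0387). Tmem131l, which promotes loss of Lrp6 in thymocytes, stood at 164 and 163 CPM against 112 and 110 CPM (log2 fold change 0.56 ± 0.12 SE, adjusted p = 0.0178).

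Among the 28 further genes of the destruction complex and its regulators, 4 rose and 0 fell of 24 tested. Csnk1e, the casein kinase that acts on Dishevelled and Lrp6, stood at 125 and 226 CPM against 61.7 and 69.6 CPM (log2 fold change 1.36 ± 0.18 SE, adjusted p = 0.00355). Dact1, which binds Dishevelled, had 199 and 72 counts against 31 and 20 counts (log2 fold change 2.39 ± 0.38 SE, adjusted p = 0.00734). Tnks2, a tankyrase that marks Axin for destruction, rose by a log2 fold change of 0.52 and Macf1, a cytoskeletal linker that binds the Axin complex, by 0.64 (adjusted p = 0.0341 and 0.0369).

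Among the 21 nuclear cofactors, 4 rose and 3 fell of 19 tested. Tle2, a Groucho corepressor of TCF/LEF, stood at 11.9 and 34.9 CPM against 4.83 and 6.42 CPM (log2 fold change 1.85 ± 0.30 SE, adjusted p = 0.00744). Bcl9l, which bridges beta-catenin to its coactivators, rose by a log2 fold change of 0.92, and the acetyltransferase gene Crebbp by 0.65 (adjusted p = 0.0200 and 0.0185). The chromatin remodeller gene Smarca4 and the ATPase genes Ruvbl1 and Ruvbl2 fell, at log2 fold changes of -0.52, -0.58 and -0.58 (adjusted p = 0.0259, 0.0270 and 0.0301). Among the 25 genes of the planar polarity and calcium branches, 4 rose and 0 fell of 22 tested: Camk2d, a calcium-dependent kinase (27.6 and 29.2 CPM against 9.33 and 8.29 CPM, log2 fold change 1.68 ± 0.19 SE, adjusted p = 0.00228), the polarity gene Prickle3 (1.11, adjusted p = 0.0231), the kinase gene Rock2 (0.73, adjusted p = 0.0125) and the calcium-driven factor Nfatc2 (1.18, adjusted p = 0.0257).

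Among 25 reported beta-catenin targets, 3 rose and 3 fell of 14 tested, and Sp5, Cdx2, Mmp7 and T were at 0. Ccnd1, which encodes cyclin D1, stood at 30.7 and 14.0 CPM in knockout libraries, against 73.7 and 64.8 CPM in wild-type libraries (log2 fold change -1.71 ± 0.23 SE, adjusted p = 0.0041). Myc, a growth regulator, stood at 26.1 and 32.3 CPM against 40.0 and 51.2 CPM (log2 fold change -0.64 ± 0.14 SE, adjusted p = 0.0221), and Birc5, which encodes the mitotic protein survivin, at 69.3 and 63.1 CPM against 90.7 and 86.1 CPM (log2 fold change -0.42 ± 0.12 SE, adjusted p = 0.0490). Only 1 of the 11 alternative fits, that with DESeq2 size factors, kept the Birc5 call. It was lost with the robust prior (adjusted p = 0.0528), the DESeq2 Wald test (adjusted p = 0.0782) and without the filter (adjusted p = 0.101), among others. Bambi, a pseudoreceptor of the TGF-beta family, stood at 13.6 and 14.0 CPM against 5.34 and 4.55 CPM (log2 fold change 1.47 ± 0.23 SE, adjusted p = 0.00732). Sox4 rose by a log2 fold change of 0.94 and Ppard by 0.80 (adjusted p = 0.0148 and 0.0345). Cyclin D1 and Myc fell while Bambi and Sox4 rose, so the list as a whole had no single direction.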

How the data were processed

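RNA was measured in 4 libraries of sorted megakaryocytes, 1 per combination of Gfi1b genotype and Cre, grouped by their titles. Per the labels' protocols, libraries came from a stranded TruSeq mRNA kit and were sequenced paired-end. The authors deposited raw read counts per Ensembl gene, and per the submitters' processing notes TopHat2 2.0.10, SAMtools, HTSeq and DESeq were used with the builds mm10 and GRCm38. Not given in the sources used here are the annotation release, how strand was handled in counting and whether mice were pooled, so genes that overlap another could share reads with it. Counts are not normalised. Reads outside genes made up 36.1% and 36.2% (knockout, PF4-Cre and ROSA-Cre) and 32.0% and 34.9% (wild-type) of uniquely aligned reads and ambiguous reads 0.448%, 0.532%, 0.488% and 0.531% in that order; both stayed out of library sizes and tests. Symbols and coordinates came from GENCODE M21.

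Tests used edgeR 4.0.16 (R 4.3.3): genes were filtered with filterByExpr on genotype (minimum count 10), libraries scaled by TMM, and genotype and Cre fitted as additive terms, with quasi-likelihood F-tests and Benjamini-Hochberg adjustment at 0.05 over 15063 genes. This left 1 residual degree of freedom, moderated with 6.25 prior degrees of freedom. With these terms, any difference between the Cre models in the genotype effect counts as spread. A standard error is the log2 fold change divided by the root of F. Ratios within a model are of scaled counts, with exact 95% binomial intervals, and the 2-fold rule added a pseudocount of 1. Levels per kilobase used exon length. The script was tested on simulated data. Alternatives were DESeq2 1.42.0 size factors and its Wald test, other filters, a robust prior, no other model term, each library left out, and, added after the data were seen, the older quasi-likelihood method.

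All 49 genes are accounted for: those with at least 10 counts in a library with values, others by count. Of the 131 other pathway genes, those past the genotype test are named, at most 6 per list by smallest p. The members and lists were chosen with earlier results of these data known.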

Additional observations from a re-analysis of the deposited data

Results flagged for a closer look

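Lrp6 was flagged because its genotype difference had opposite signs in the 2 models. The log2 ratio of knockout over wild-type was -0.063 in PF4-Cre, from 163 CPM against 170 CPM, and 0.33 in ROSA-Cre, from 172 CPM against 137 CPM. This difference was not tested, since each group has 1 library. Of the other genes tested, Dvl2, Znrf3, Nkd1 and Sfrp1 also had ratios on either side of 1. In Lrp6 alone of these genes, the counting intervals of both models left out 1.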

How the results depend on the processing

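Libraries could not be paired by replicate, because the labels give no replicate numbers and each group has 1 library. The main model carries the Cre model as a term, which pairs knockout with wild-type within each Cre model. Genes called for genotype numbered 3348 (56.9% higher); without the filter on low counts 1935 (72.7% higher), without the Cre model term 162 (97.5% higher) and over the fits without 1 library between 506 and 1061. Of the 49 genes 8 were called; with a mean of at least 5 CPM 4, without the Cre model term 1 (Wnt10b), and without 1 library between 1 and 6. Of the other pathway genes 26 were called, without the Cre model term 1, and without 1 library between 4 and 11. For the Cre model 6 of the 49 were called, without the filter 3, without the genotype term 0, and without 1 library between 0 and 0. At a 4-fold limit in both models 2 genes were left of 7, beside 2.80% of all genes with at least 10 counts in a library of each pair. The fits without 1 library also drop the other term, so a difference between the models counts as spread there. DESeq2 size factors and the robust prior kept all 8 genotype calls, and the Wald test, the older method and no filter gave 7, 7 and 6. The filter at a mean of 5 CPM left 16 of the 49 genes to test, and its 4 calls were Fzd5, Fzd6, Fzd8 and Wnt10b. Fzd1, Fzd9, Tcf7l2, Porcn and Axin2 were not among the 16. Wnt10b and Ptk7 were called in all 11 alternative fits. Directions reversed for genes that were not called: with the DESeq2 Wald test Nkd1 (-0.030, main 0.08) and Sfrp1 (1.03, main -0.03), and Sfrp1 also with the older method (0.35) and without the Cre model term (0.050). Over the fits without 1 library the log2 fold change ran from -0.45 to 0.012 for Dvl1, -0.34 to 0.43 for Dvl2, -1.001 to 0.69 for Dvl3, -0.067 to 0.12 for Ctnnb1, -0.59 to 0.081 for Lrp5, -0.0055 to 0.29 for Lrp6, -0.42 to 0.031 for Axin1, -0.45 to 0.32 for Znrf3, -1.46 to 1.33 for Nkd1 and -0.45 to 2.73 for Sfrp1, and, of called genes, -0.11 to 1.86 for Bcl9l. The cause of these changes was not tested. Counts under 10 leave wide counting intervals, and of those of the 49 genes at that level Nkd1 alone entered the test.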
